A study of Mus musculus with 7 samples.

Results

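Hair shaft keratins are the keratins that form the hair fibre itself, and 10 of them were taken up here by name: Krt31, Krt32, Krt33a, Krt33b, Krt34, Krt35, Krt81, Krt82, Krt85 and Krt86. Each was read from a probe set annotated to that gene and no other, the brightest on average where there was a choice. This left 8 genes of the 19937 tested; Krt81 and Krt85 had no such probe set and were not analysed here. The study measured RNA of mouse tissue on 7 Affymetrix Mouse Gene 1.0 ST arrays. Of these, 2 were of Iqgap1 knockout mice and 2 of wild-type mice at day 6, and 2 were of Iqgap1 knockout mice and 1 of wild type at day 0. The agent in every group, day 0 included, was 4OHT (4-hydroxytamoxifen), applied to the skin, and all mice had a mixed C57BL/6 and 129 background. Iqgap1 encodes a scaffold protein of the Ras-ERK cascade. The labels named no inducible protein, age or body site, and did not say how the knockout was made, nor whether replicates were separate mice, and the p-values here therefore reflect only how far these arrays spread, which may be technical.

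A hair fibre is built from pairs of an acidic (type I) and a basic (type II) hair keratin, which assemble into filaments and are then embedded in keratin-associated proteins and cross-linked through their many cysteines. The cells that make them lie above the dividing matrix at the base of the follicle, and they do so only while the follicle is in its growth phase (anagen). A resting follicle (telogen) keeps its finished club hair but makes little hair keratin RNA. Of the genes measured, Krt31, Krt32, Krt33a, Krt33b, Krt34 and Krt35 are type I and lie side by side on mouse chromosome 11, and Krt82 and Krt86 are type II and lie on chromosome 15.

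RefSeq promoter windows (GRCm38.p6) were at hand for 5 of the 10 genes. They are shown because the 8 genes moved together on the arrays and because the DNA-binding proteins LEF1 and HOXC13, both active in the hair matrix, are known for binding sites before hair keratin genes. The 250 bases before the annotated start are printed, all from the minus strand: Krt31 (chr11:100050552-100050801), Krt32 (chr11:100088270-100088519), Krt33b (chr11:100029869-100030118), Krt34 (chr11:100041555-100041804) and Krt82 (chr15:101550660-101550909). Capitals mark matches, on either strand, to LEF1-type motifs (the letters CTTTGAA or CTTTGAT or CTTTGTA or CTTTGTT), to HOXC13-type motifs (TTAATNAA, TTAATNAG, TTAATNGA, TTAATNGG, TTTATNAA, TTTATNAG, TTTATNGA or TTTATNGG) and to the TATA box (TATAAA).
Krt31: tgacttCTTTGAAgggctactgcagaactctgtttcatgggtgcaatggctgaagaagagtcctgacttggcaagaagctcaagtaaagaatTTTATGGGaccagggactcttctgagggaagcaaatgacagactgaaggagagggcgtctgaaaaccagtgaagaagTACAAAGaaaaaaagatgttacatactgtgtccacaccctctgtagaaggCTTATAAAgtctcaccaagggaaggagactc
Krt32: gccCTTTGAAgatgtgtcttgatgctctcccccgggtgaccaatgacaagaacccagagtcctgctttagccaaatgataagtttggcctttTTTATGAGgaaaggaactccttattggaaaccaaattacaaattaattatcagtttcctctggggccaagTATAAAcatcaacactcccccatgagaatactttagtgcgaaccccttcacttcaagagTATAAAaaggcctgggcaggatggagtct
Krt33b: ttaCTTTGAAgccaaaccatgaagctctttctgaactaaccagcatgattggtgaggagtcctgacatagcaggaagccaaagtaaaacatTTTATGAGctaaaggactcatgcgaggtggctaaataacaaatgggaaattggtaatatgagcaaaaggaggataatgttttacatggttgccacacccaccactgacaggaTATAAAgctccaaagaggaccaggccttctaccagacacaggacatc
Krt34: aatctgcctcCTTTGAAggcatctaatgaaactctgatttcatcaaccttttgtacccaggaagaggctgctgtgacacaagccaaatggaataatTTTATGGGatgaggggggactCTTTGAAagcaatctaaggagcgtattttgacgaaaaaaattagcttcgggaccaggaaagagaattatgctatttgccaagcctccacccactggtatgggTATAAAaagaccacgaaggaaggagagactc
Krt82: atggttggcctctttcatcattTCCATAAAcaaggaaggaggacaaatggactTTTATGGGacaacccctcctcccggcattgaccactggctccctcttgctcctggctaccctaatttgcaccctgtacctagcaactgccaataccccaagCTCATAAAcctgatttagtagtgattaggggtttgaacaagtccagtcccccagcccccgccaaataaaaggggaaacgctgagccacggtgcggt

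The 4 type I windows each held CTTTGAA on the gene's own strand, starting between -247 (Krt32, Krt33b) and -240 (Krt34), and a HOXC13-type match starting between -159 (Krt33b) and -154 (Krt34). Each of the 4 also held a TATA box. Krt82, of the type II cluster, held 3 HOXC13-type matches, no LEF1-type match and no TATA box with these letters. A HOXC13-type match of Krt31 overlapped its TATA box. LEF1-type motifs stood in 4 of these 5 windows and in 14.8% of the 32851 windows of the same length in the table, HOXC13-type motifs in 5 of 5 and 17.2%, and the TATA box in 4 of 5 and 12.4%. The letters TTTTATG, chosen after the windows were read, stood in all 5 and in 3.77% of all windows. In each of the 5 they overlapped a HOXC13-type match, so they are not a separate site. Related genes shared the motifs unevenly. The TATA box stood in 7 of 8 inner root sheath and 41 of 51 Krtap windows, and HOXC13-type motifs in 5 of 8 and 26 of 51. LEF1-type motifs stood in 2 of 8 and 17 of 51, and TTTTATG in 0 of 8 and 11 of 51. In 7 windows of epidermal genes the TATA box stood in 3, LEF1-type motifs in 1, and HOXC13-type motifs and TTTTATG in 0. The type I genes are related copies and their windows are not independent of each other; a match is a description of letters and not a bound site.

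**Figure D1:**
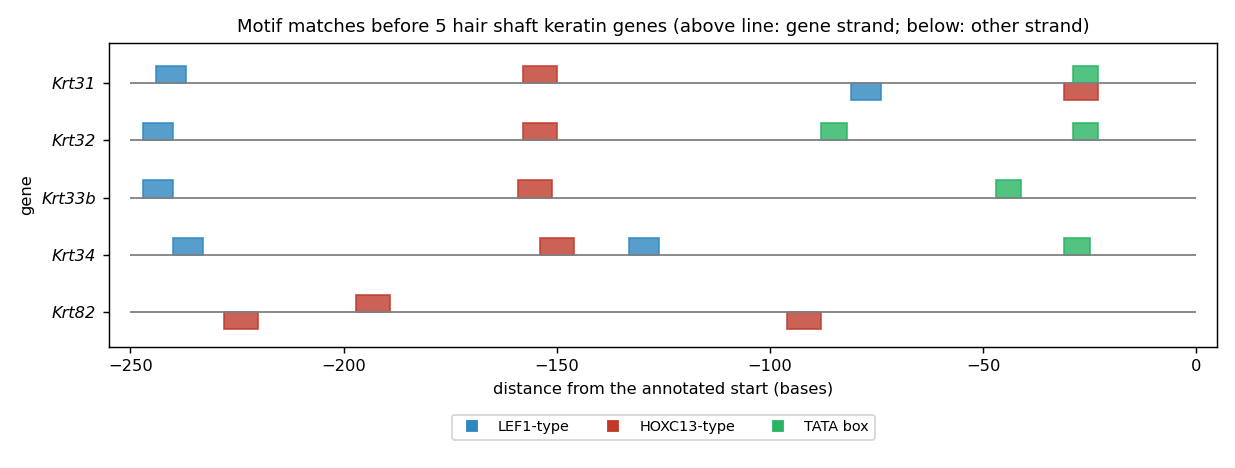
Positions of motif matches (blue, LEF1-type; red, HOXC13-type; green, TATA box) in the 250 bases before the annotated start of 5 hair shaft keratin genes, with distance from the start in bases on the x axis. In Krt31, Krt32, Krt33b and Krt34 a LEF1-type match between -247 and -234 is followed by a HOXC13-type match between -159 and -147.

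A pair of arrays stood apart by Xist signal before any comparison. Xist, whose RNA coats the inactive X, read 10.30 in wild-type replicate 1 at day 6 and 11.15 in the wild-type array at day 0, against 3.55 to 4.03 on the other 5 arrays, which instead had signal of Uty, Kdm5d and Eif2s3y, all Y-linked. Over all genes the wild-type day 0 array correlated with the others at 0.924 to 0.937. Pairs among the other 6, which mix replicates with pairs across days and genotypes, correlated at 0.91 to 0.992. Replicates within a group correlated at 0.979 to 0.991 (across genes, which are not replicates). The wild-type day 0 array had no replicate, so these values do not show whether it was typical of its group. Iqgap1 read 8.58 and 8.67 on the knockout arrays and 10.11 and 10.59 on the wild-type arrays of day 6, and 9.02 and 8.99 on the knockout arrays and 9.94 on the wild-type array of day 0, so every knockout array lay below every wild-type array; where its probe set lies relative to the deletion was not used here. The epidermal markers Krt5, Krt14, Krt10, Krt1 and Lor read 9.49 or more on every array. Of the other epidermal genes listed, Krt2 read 4.14 to 4.37 throughout, and Flg was not analysed here. Krt77, a keratin of the epidermis, read 5.95 and 6.50 on the knockout arrays and 6.46 and 5.98 on the wild-type arrays of day 6, and 12.89 and 12.72 on the knockout arrays and 12.02 on the wild-type array of day 0.

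Hair shaft keratin RNA was high on 1 array of the 7, the wild-type array at day 0. There the 8 genes read 9.52 to 12.64 on the log2 scale, and on each of the other 6 arrays, knockout and wild type, they read 4.22 to 7.50. For every gene the wild-type day 0 value exceeded the highest of the other 6 by 3.47 (Krt34) to 6.20 (Krt33a) log2 units, which is 11.1-fold to 73.7-fold. Being the highest of the 7 arrays held for 20.3% of all genes. All 8 genes were above each other array by more than 2 log2 units, against 163 of the 19937 genes tested (0.818%). Because that group is a single array, nothing in the data separates wild type at day 0 from that one sample, and in bulk tissue fewer cells that make hair keratin cannot be told apart from less RNA per cell.

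**Figure D2:**
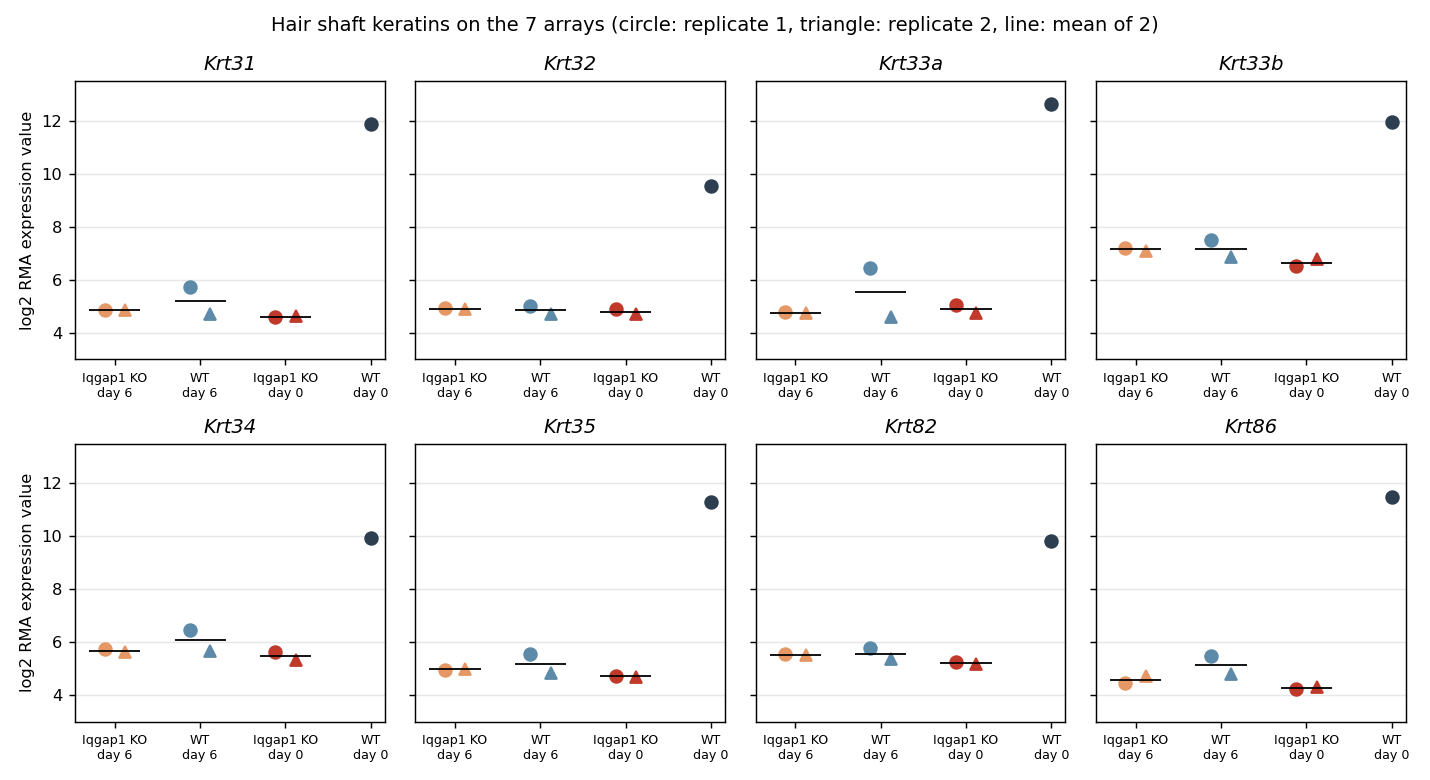
Log2 RMA expression values of the 8 hair shaft keratins on each array, by group, with lines at the mean of groups of 2. The wild-type day 0 array lies between 9.52 and 12.64 in every panel and the other 6 arrays between 4.22 and 7.50.

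Among the type I genes of the cortex, the bulk of the fibre, Krt33a read 4.79 and 4.72 on the knockout arrays and 6.43 and 4.60 on the wild-type arrays of day 6, and 5.04 and 4.73 on the knockout arrays and 12.64 on the wild-type array of day 0. Its neighbour and close relative Krt33b read 7.21 and 7.09 on the knockout arrays and 7.50 and 6.84 on the wild-type arrays of day 6, and 6.50 and 6.76 on the knockout arrays and 11.97 on the wild-type array of day 0. Krt31, also a cortex keratin, read 4.87 and 4.86 on the knockout arrays and 5.72 and 4.69 on the wild-type arrays of day 6, and 4.57 and 4.63 on the knockout arrays and 11.88 on the wild-type array of day 0. In all of these the wild-type day 0 array was the high one, and wild-type replicate 1 at day 6 was next. Krt34 had the smallest excess over the rest, with 5.74 and 5.64 on the knockout arrays and 6.48 and 5.68 on the wild-type arrays of day 6, and 5.64 and 5.33 on the knockout arrays and 9.95 on the wild-type array of day 0. Copies as alike as Krt33a and Krt33b can share signal between their probe sets, so the separate levels are uncertain to that extent.

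Krt35 is, in human follicles, one of the first hair keratins made above the matrix. It read 4.97 and 4.98 on the knockout arrays and 5.54 and 4.84 on the wild-type arrays of day 6, and 4.74 and 4.68 on the knockout arrays and 11.29 on the wild-type array of day 0. Krt32, a keratin of the hair cuticle (the outer scale layer) in human follicles, read 4.93 and 4.88 on the knockout arrays and 4.99 and 4.71 on the wild-type arrays of day 6, and 4.88 and 4.69 on the knockout arrays and 9.52 on the wild-type array of day 0. Both genes had 1 high array and 6 low ones, and for Krt32 the low ones spanned no more than 4.69 to 4.99.

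Of the type II genes, Krt86 is a cortex keratin whose human counterpart is mutated in monilethrix, a disorder of beaded, fragile hair. It read 4.48 and 4.71 on the knockout arrays and 5.47 and 4.79 on the wild-type arrays of day 6, and 4.22 and 4.32 on the knockout arrays and 11.47 on the wild-type array of day 0. Krt82, the type II partner in the cuticle, read 5.54 and 5.52 on the knockout arrays and 5.77 and 5.37 on the wild-type arrays of day 6, and 5.25 and 5.19 on the knockout arrays and 9.82 on the wild-type array of day 0. The type II genes thus had the same single high array as the type I genes. Krt86 has near-identical relatives on the same chromosome, and its signal may be shared with them. The level a hair keratin probe set shows with no transcript is not known here; Xist and the Y-linked genes read 3.50 to 4.25 on the arrays without their signal.

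Set against wild type at day 0, all 8 hair shaft keratins were lower in knockout. The fitted log2 differences were -7.75 ± 0.64 for Krt33a, -7.28 ± 0.39 for Krt31, -7.19 ± 0.30 for Krt86 and -6.58 ± 0.29 (SE) for Krt35, or 216-, 156-, 146- and 95.9-fold lower in knockout. Krt33b, Krt32, Krt82 and Krt34 differed by -5.34 ± 0.30, -4.74 ± 0.21, -4.61 ± 0.22 and -4.47 ± 0.34 (SE), the last a 22.2-fold difference. Adjusted p in the limma fit of 4 groups lay between 0.000108 (Krt86) and 0.00125 (Krt33a), and 8 of 8 were called lower, against 5.86% of all genes; their median was -5.96, against -0.09 over all genes. The error of the single wild-type array is borrowed from the other groups. Xist signal was present on that array and absent from the knockout arrays, so within day 0 genotype and that split cannot be told apart. With a term for that signal, the differences were -6.52 (Krt86) to -3.66 (Krt34), with Krt33a at -5.92. The term is set by wild-type replicate 1 against replicate 2 at day 6, where the 8 genes read 4.60 to 7.50. It therefore cannot separate genotype from the Xist split at the high level of the day 0 array.

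In wild type, all 8 genes fell between day 0 and day 6. Krt33a fell by 7.12 ± 0.64, Krt31 by 6.68 ± 0.39 and Krt86 by 6.33 ± 0.30 on the log2 scale, and Krt34 had the smallest change, -3.87 ± 0.34 (SE). Adjusted p from limma lay between 0.000135 (Krt32) and 0.00166 (Krt33a). The 8 of 8 called lower compare with 3.61% of all genes, and their median of -5.46 with 0.00 over all genes. This comparison shares its single day 0 array with the comparison of genotypes at day 0, so the 2 results are not independent.

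In knockout, 0 of the 8 passed the test between day 6 and day 0, while 16.3% of all genes were called in either direction by limma; 0 of the 8 had an unadjusted p under 0.05. Their fitted differences ran from -0.13 ± 0.52 (Krt33a) to 0.52 ± 0.24 (Krt33b, SE), with a median of 0.26 against 0.10 over all genes. In 6 of the 8 both day 6 arrays lay above both day 0 arrays, as they did in 42.2% of all genes. Whether knockout and wild type differed in their day change was itself tested. The difference was 6.99 ± 0.83 for Krt33a, 6.94 ± 0.50 for Krt31 and 4.08 ± 0.44 (SE) for Krt34 in the fit of 4 groups (knockout change minus wild-type change), with limma adjusted p between 0.000783 (Krt32, Krt86) and 0.0104 (Krt33a). All 8 were called higher, against 1.76% of all genes. The test uses the same single wild-type day 0 array, and knockout already read low at day 0, with little room to fall. The difference in day change thus largely repeats the day 0 gap and is not an independent result. Without knockout replicate 1 at day 6, Krt33a had an adjusted p of 0.0511 and 7 of 8 were called.

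**Figure D3:**
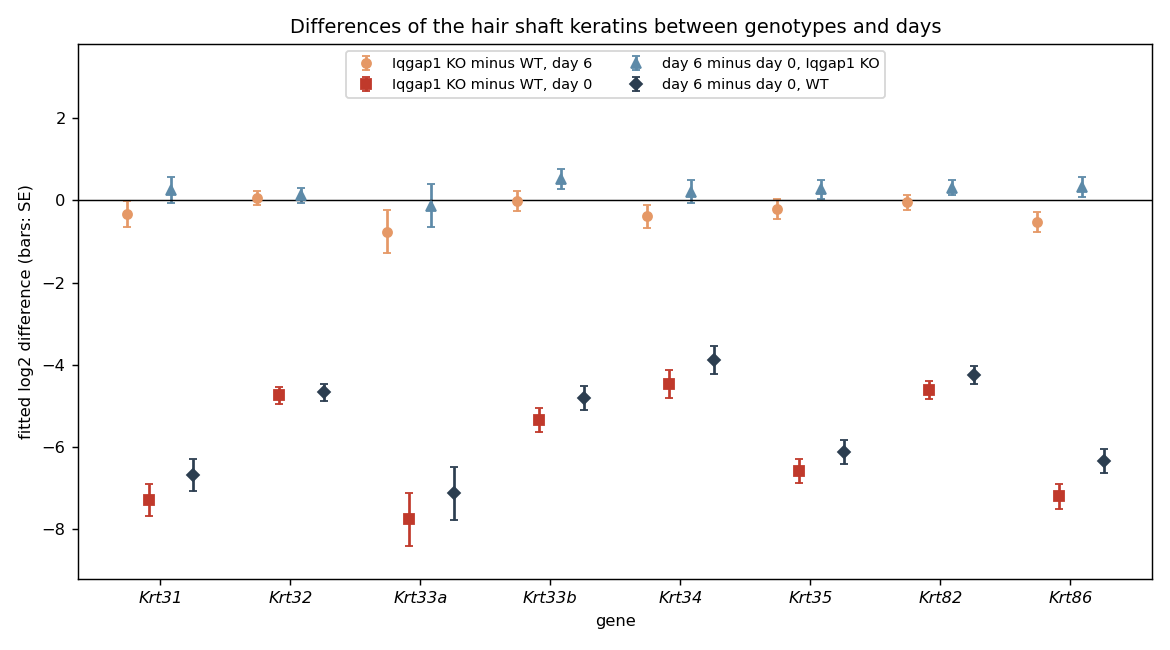
Fitted log2 differences with SE for the 8 hair shaft keratins in 4 comparisons. Knockout minus wild type at day 0 and day 6 minus day 0 in wild type lie between -7.75 and -3.87, and the comparisons that leave out the wild-type day 0 array lie between -0.77 and 0.52.

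At day 6, no hair shaft keratin passed the test between knockout and wild type. Fitted differences ran from -0.77 ± 0.52 (Krt33a) to 0.05 ± 0.17 (Krt32, SE), with limma adjusted p of 0.80 or more; 0 of the 8 genes and 0 of all genes were called (0%), with 0 of the 8 and 1182 of all genes at an unadjusted p under 0.05. Iqgap1 itself, at -1.73 ± 0.20 (SE), was not called at day 6 (limma adjusted p 0.50), so a lack of calls does not show equal levels. In 1 of the 8, Krt86, both knockout arrays lay below both wild-type arrays, as in 15.7% of all genes. Wild-type replicate 1 was the highest of the 6 arrays outside wild type at day 0 for all 8 genes, by 0.06 (Krt32) to 1.40 (Krt33a) over the highest of the other 5; 33.4% of all genes were also above those 5. Relative to the mean of those 5 arrays, the 8 genes stood higher there by a median of 0.79, against 0.10 over all genes and 0.21 over the 8499 genes whose mean on those arrays was under 6, and 4.17% of all genes exceeded 0.79. That array is the other one with Xist signal, and the SD of values over all probe sets was 2.39 on the lower of the arrays with it, against 2.45 to 2.49 on the 5, with no overlap; the part of either in the result was not tested. Without it, 6 of the 7 genes with a fitted difference below 0 turned to values of 0.01 (Krt34) to 0.30 (Krt33b), none called.

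Over both genotypes the 8 genes differed between day 6 and day 0 by -2.93 ± 1.37 (Krt33a) to -1.43 ± 0.79 (Krt34, SE), and none was called by limma (11.5% of all genes were). Over both days knockout differed from wild type by -3.56 ± 1.37 (Krt33a) to -1.87 ± 0.91 (Krt32, SE), with 0% of all genes called; at an unadjusted p under 0.05 it was 3 of the 8 and 3729 of all genes. Without the wild-type day 0 array, wild type had no day 0, so the day difference became the day change in knockout alone. It was 0.12 (Krt32) to 0.52 (Krt33b) in 7 of the genes and -0.13 in Krt33a.

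The wild-type day 0 array was also high in the other genes of the growing hair. Of 5 measured hair keratins outside the 8, all were lower in knockout than in wild type at day 0 (median -4.30), with Krt39 at -5.57 ± 0.20, Krt87 at -5.73 ± 0.32, Krt40 at -3.45 ± 0.22 and Krt84 at -4.30 ± 0.36 (SE). All 9 genes of the inner root sheath, the sleeve that moulds the growing shaft, were lower too (median -7.25), among them the sheath keratins with the smallest p, Krt28 (-7.37 ± 0.22) and Krt26 (-7.39 ± 0.25, SE), while Krt71 had the largest difference of the list, -7.40 ± 0.84 (SE). All 4 non-keratin genes of the shaft were lower in knockout (median -5.61): the receptor gene Gprc5d of hard keratinizing tissue, the protein-arginine deiminase Padi3, the hair desmosome cadherin Dsg4 and the cuticle calcium-binding protein S100a3. Of 44 Krtap genes, which encode the matrix proteins around the filaments and whose copies can share signal, 42 were lower (median -6.19). Over all genes limma called 5.86% lower and 8.53% higher, and the list values come from the same single array.

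Regulators of the hair matrix had a smaller median difference. Of 11, 8 were lower in knockout at day 0 and 0 higher (median -1.78), with Msx2 at -4.20 ± 0.24, Lef1 at -3.32 ± 0.33, Dlx3 at -2.98 ± 0.23 and Msx1 at -1.78 ± 0.22 (SE). Hoxc13, named for the motif above, read 6.43 and 5.50 on the knockout arrays and 7.90 and 5.63 on the wild-type arrays of day 6, and 6.60 and 6.19 on the knockout arrays and 10.04 on the wild-type array of day 0 (log2 difference at day 0 -3.65 ± 0.84, SE; adjusted p 0.0342). Wild-type day 0 was again the high array and wild-type replicate 1 at day 6 the next. Of 9 melanocyte genes, 7 were lower in knockout at day 0 (median -4.25), with the pigment enzyme gene Tyr at -5.50 ± 0.26 and the transporter genes Slc45a2 at -4.25 ± 0.19 and Oca2 at -4.12 ± 0.20 (SE). The melanocyte regulators Mitf and Sox10 did not pass, at -0.68 ± 0.24 and 0.04 ± 0.20 (SE), and are named after their values were seen.

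Other lists of skin did not share the pattern of the hair keratins as whole lists, though some of their genes did in part. The wild-type day 0 array was the highest of the 7 for 4 of 5 dermal papilla genes, against 20.3% of all genes. It was the highest for 3 of 7 follicle stem cell and companion layer genes, and in neither list by more than 2 log2 units. Corin read 7.76 and Wif1 7.87 there, with wild-type replicate 1 at day 6 next at 6.06 and 6.24. Of 7 follicle stem cell and companion layer genes, Nfatc1 was higher in knockout at day 0 (2.50 ± 0.20, SE), the companion layer keratin Krt75 was lower (-1.72 ± 0.37, SE) and 5 did not pass. Of 5 dermal papilla genes, Corin and Wif1 were lower, Fgf7 was higher and 2 did not pass. Of 7 interfollicular epidermis genes, Lor was higher and 6 did not pass, and of 4 stress keratins and 6 sebaceous gland genes none passed. Of 7 skeletal muscle genes, Myh1 and Tnnt3 were higher in knockout, and of 5 adipocyte genes Lep was. The levels of these lists of tissues under the skin differed along with the hair keratins: the mean of the muscle list was 12.38 and 12.11 on the knockout arrays and 11.22 on the wild-type array of day 0, and that of the adipocyte list 10.86 and 10.45 on the knockout arrays and 9.80 on the wild-type array. Their part in the hair keratin difference was not tested.

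In wild type between day 6 and day 0, with the same single array as its day 0, 5 of 5 other hair keratins, 9 of 9 inner root sheath genes, 4 of 4 non-keratin shaft genes, 41 of 44 Krtap genes, 7 of 11 matrix regulators and 8 of 9 melanocyte genes fell, against 3.61% of all genes. Lists of other cell types moved in that comparison as well: 4 of 7 muscle genes, 4 of 5 adipocyte genes, 2 of 7 follicle stem cell and companion layer genes, 2 of 5 dermal papilla genes, 1 of 6 sebaceous gland genes and 1 of 7 epidermal genes fell by limma. In the other direction 3 of 4 stress keratins (median 2.91) and 1 of 7 epidermal genes rose, against 3.51% of all genes. What part these have in the hair keratin result was not tested.

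**Figure D4:**
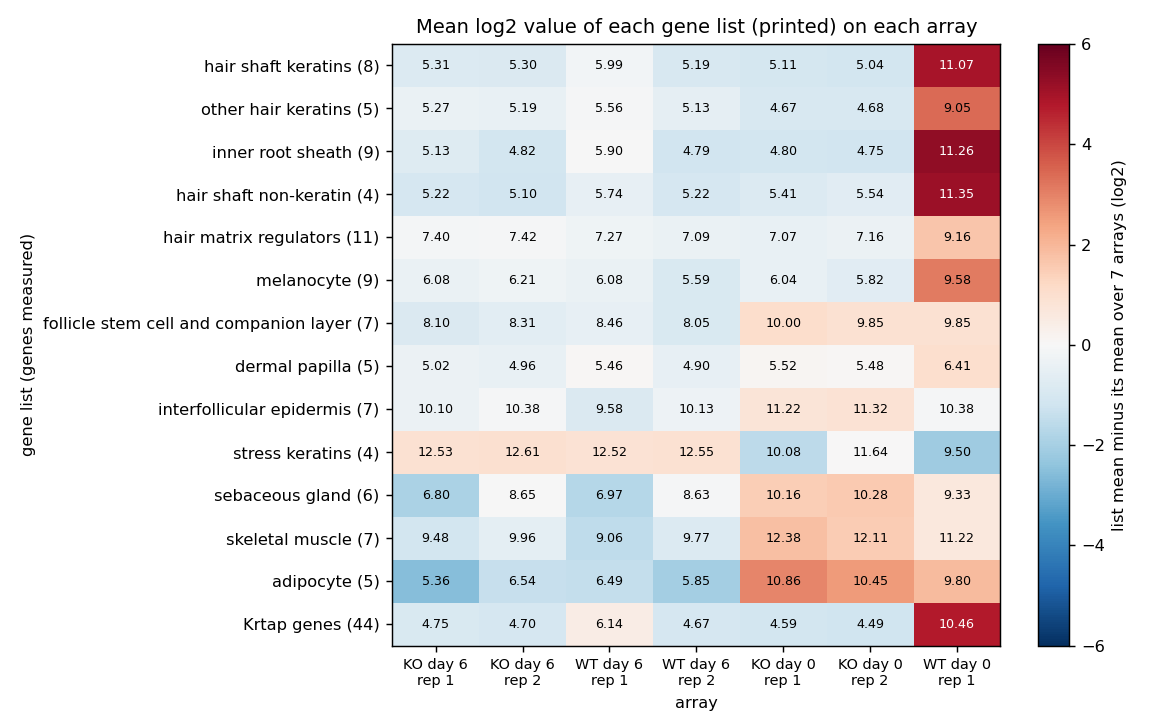
Mean log2 value of each gene list on each array (printed numbers), coloured by the difference from the list's own mean over the 7 arrays. The 8 hair shaft keratins average 11.07 on the wild-type day 0 array and 5.04 to 5.99 on the others, and the inner root sheath and Krtap lists follow the same pattern.

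Between day 6 and day 0 in knockout, where both groups have 2 arrays, limma called 0 of 9 inner root sheath genes and 0 of 44 Krtap genes, against 16.3% of all genes. Of the other hair genes, Krt84 (1.24 ± 0.29) and Padi3 (1.42 ± 0.20) rose and Dsg4 changed by -2.57 ± 0.23 (SE). Of the 11 matrix regulators 2 rose, Foxn1, a regulator of hair shaft keratinization (2.06 ± 0.36), and Ovol1 (0.91 ± 0.22, SE). Of the 9 melanocyte genes 1 rose and 1 fell. Of the other lists, 5 of 7 follicle stem cell and companion layer genes fell (Krt15 by 3.58 ± 0.39, Krt75 by 1.92 ± 0.30, SE, and Nfatc1, Lhx2 and Cd34), as did 7 of 7 muscle genes (median -1.80), 5 of 5 adipocyte genes (median -4.25), 2 of 6 sebaceous gland genes, 1 of 5 dermal papilla genes and 1 of 7 epidermal genes, Krt77, and 2 of 4 stress keratins rose.

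At day 6, wild-type replicate 1 also stood out in 3 inner root sheath keratins, which were chosen after their values were seen. Krt71 read 5.15 and 5.26 in knockout and 7.73 and 5.25 in wild type. Krt25 read 5.04 and 4.73 in knockout and 7.53 and 4.78 in wild type, and Krt27 read 5.48 and 4.86 in knockout and 7.49 and 5.17 in wild type. Krt28, of the same layer, read 4.06 and 3.73 in knockout and 3.64 and 3.58 in wild type, with no such excess. The mean of the Krtap list was 4.75 and 4.70 in knockout and 6.14 and 4.67 in wild type.

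Along chromosome 11 the excess on the wild-type day 0 array covered the hair keratins and the Krtap genes on one side of them, and was absent from the keratin genes on the other side. In gene order (GRCm38.p6, measured genes only) the type I block runs Krt33a, Krt33b, Krt34, Krt31, Krt32, Krt35 and then Krt36, which stood 2.03 above the highest other array. The next gene, Krt13, a keratin of internal epithelia, read 4.74 on the wild-type day 0 array, 0.59 below the highest of the others. Beyond it Krt15, Krt19, Krt9, Krt14, Krt16 and Krt17 were all below the highest other array. On the other side all 8 genes looked at, Krtap and predicted genes, were above the highest other array, from Krtap17-1 next to the block (2.85) and Krtap31-2 (4.24) to Krtap4-16 (5.59) and Gm11564 (3.21) at the far end of the stretch. On chromosome 15, Krt86 (6.00 above) had Krt87 (4.78) and Krt84 (2.53) near it, while Krt88, which lies between Krt87 and Krt86 in this order, was at 0.01 and did not pass (knockout minus wild type at day 0 -0.89, limma adjusted p 0.106). Beyond Krt82 (4.06) the excess was 1.35 in Krt90 and 1.44 in the companion layer keratin Krt75, both lower in knockout at day 0. The next 5 genes were below the highest other array, and after them the inner root sheath keratin Krt71 stood 4.99 above.

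**Figure D5:**
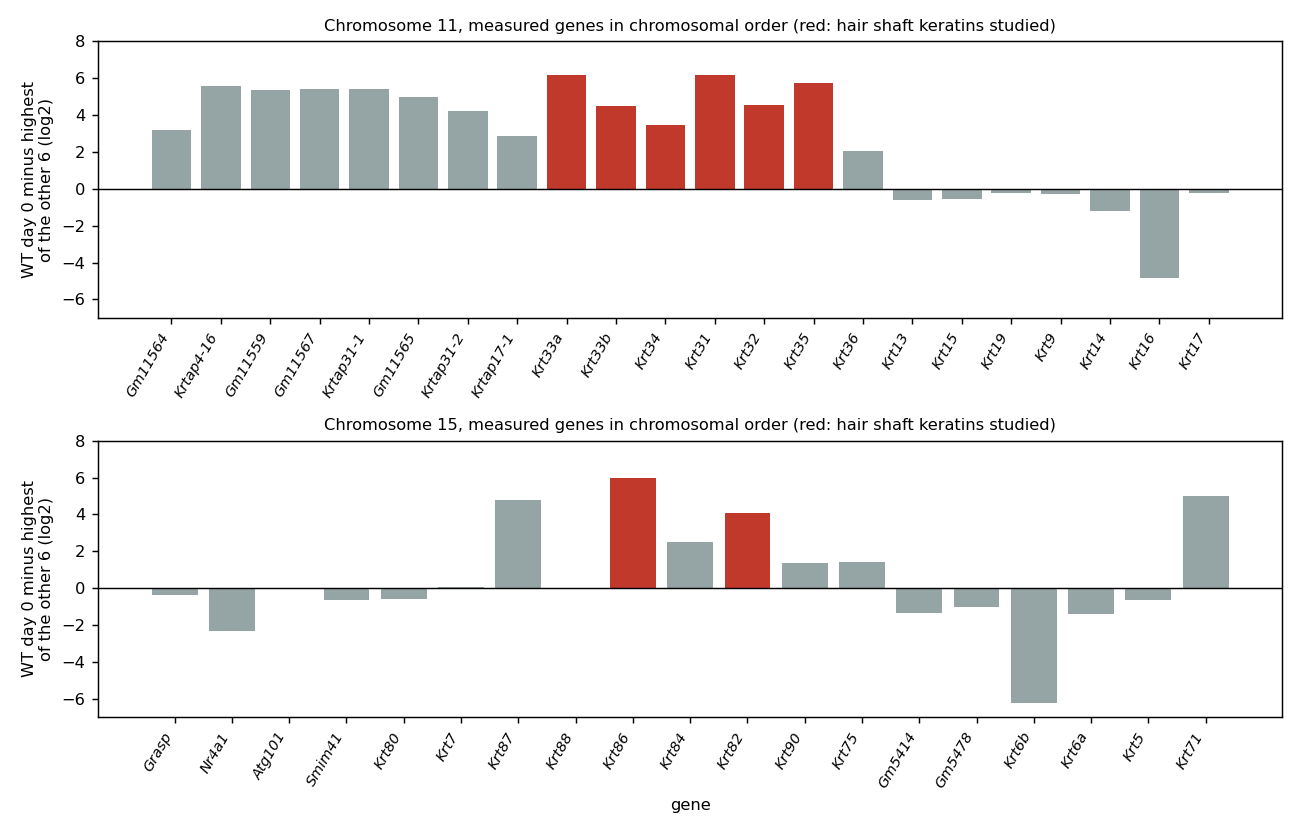
Log2 value on the wild-type day 0 array minus the highest of the other 6 arrays, for measured genes in chromosomal order around the hair keratins of chromosomes 11 and 15. Bars of the 8 genes (red) reach 3.47 to 6.20, and those of Krt13 to Krt17 on chromosome 11 lie below 0.

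The genes most like the hair shaft keratins over the 7 arrays were ranked by Pearson correlation with the mean of the 8 genes, each centred on its own mean, among 4534 other genes with an SD of at least 0.5. The nearest named genes were Gprc5d (r = 0.9994), Krt87 (0.9990), the pigment cell receptor gene Gpr143 (0.9987), a probe set annotated to Mir687 (0.9980), Csn3 (0.9976), the melanosome transporter gene Slc24a5 (0.9970), Krt73 (0.9966) and Tm4sf4 (0.9965). Before the last of these, 10 Krtap and 4 predicted genes were passed over, and 69 genes in all exceeded 0.99. Correlation takes no account of level, and Gpr143, Mir687 and Csn3 read only 6.92, 6.14 and 5.71 on the wild-type day 0 array. Those values lie within the 4.22 to 7.50 that the hair shaft keratins read on the other 6 arrays. These correlations rest on 1 array. Without it, over 6 arrays, r was 0.97 for Gprc5d, 0.96 for Krt87, 0.95 for Gpr143 and 0.81 for Tm4sf4. Among the 8 genes themselves the 28 pairs correlated at 0.984 or more over the 7 arrays, and at 0.47 to 0.99 with a median of 0.88 over the 6. The values over 6 arrays may again lean on 1 array, wild-type replicate 1 at day 6. It was the highest of the 6 for all 8 genes, and Gprc5d read 4.72 there against 3.61 to 3.83 on the other 5. Correlations without that array as well were not tested.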

How the data were processed

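RNA was measured on 7 arrays. Per the labels' protocols, tissue was macerated for RNeasy extraction, and MessageAmp III served for the biotin-labelled cDNA. The submitters' processing notes name RMA and R 2.11.1 for the log2 expression values the authors deposited; the range of 2.37 to 13.38 gave their scale. RMA equalizes array distributions and compresses low values, so folds of dim genes are understated. Detection calls, scan batches and other RMA settings were not used here.

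Of 34760 probe sets, 21640 had 1 gene symbol in the platform table, which gave 19937 genes. Tests used limma 3.58.1 in R 4.3.3 (lmFit, eBayes), two-sided, with Benjamini-Hochberg adjustment over all 19937 genes and a threshold of 0.05. Comparisons over both genotypes or both days came from a model with genotype and day added; all others came from the means of the 4 groups fitted together, which share 1 variance estimate. The procedure was tested on simulated data. These held independent noise and no atypical array, so they do not bear on whether the single wild-type day 0 array was typical. Alternatives were other scalings, filters, variance models, a replicate block, a term for Xist signal and leaving out each array.

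The members and gene lists were chosen with earlier results of these data known. All measured members were named. From each other list up to 4 genes with the smallest p for the day change or for genotype at day 0 were named, with the exceptions stated. The genes most alike were the 8 highest correlations outside Krtap and predicted genes. The number of arrays limits the precision.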

Additional observations from a re-analysis of the deposited data

Results flagged for a closer look

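The day change differed between genotypes in all 8 hair shaft keratins by a test of the difference itself (limma, adjusted over 19937 genes). Knockout change minus wild-type change on the log2 scale was 6.99 for Krt33a, 6.94 for Krt31, 6.66 for Krt86, 6.37 for Krt35, 5.32 for Krt33b, 4.79 for Krt32, 4.56 for Krt82 and 4.08 for Krt34. All of these rest on the single wild-type day 0 array. Because knockout already read low at day 0, they largely repeat the day 0 gap and are not a separate result on the response to the day. Groups of 1 or 2 arrays were too small for a check of outlying samples within a group.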

How the results depend on the processing

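For knockout against wild type at day 0, for the day change in wild type and for the difference in day change, 359 of 360 values of the 8 genes under the alternatives kept their direction and their side of the threshold; the other was Krt33a in the difference in day change, at 6.95 without knockout replicate 1 at day 6 (limma adjusted p 0.0511). The count of the 8 genes called was 8 under every alternative for the first 2 comparisons, and 7 to 8 for the third when arrays were left out in turn. The wild-type day 0 array, the only one of its group, could not be left out of these 3 comparisons. Nor could the term for Xist signal, set by the wild-type arrays of day 6, separate genotype from that signal at day 0. Several alternatives could not change the direction of a value. Each of the 8 genes had 1 probe set, so averaging probe sets or testing all of them left its differences as they were. Leaving out dim genes and letting the variance follow intensity also left the differences as they were, as did leaving out an array of a group not compared.

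Of 544 values in the other 4 comparisons, 44 changed direction, none of them called before or after. Without the arrays with Xist signal, the day difference over both genotypes was 0.26 (Krt31), 0.12 (Krt32), 0.52 (Krt33b), 0.21 (Krt34), 0.26 (Krt35), 0.31 (Krt82) and 0.32 (Krt86), and so it was without the wild-type day 0 array. Both fits left wild type with no day 0 array, so these values are the day change in knockout and not a separate result. Knockout against wild type over both days, without the arrays with Xist signal, and at day 6, without them or with a term for them, was 0.18 (Krt31), 0.15 (Krt33a), 0.30 (Krt33b), 0.0142 (Krt34), 0.14 (Krt35) and 0.15 (Krt82). Over both days Krt32 was 0.19. Without those arrays wild type was left with a single day 6 array, so the comparison over both days became the comparison at day 6. With quantile normalization repeated, Krt32 in knockout between the days was -0.014. Leaving out each array in turn gave, for the day over both genotypes, -3.22 to 0.26 (Krt31), -2.32 to 0.12 (Krt32), -2.21 to 0.52 (Krt33b), -1.91 to 0.21 (Krt34), -2.94 to 0.26 (Krt35), -1.98 to 0.31 (Krt82), -3.06 to 0.32 (Krt86). For genotype over both days it gave -4.07 to -0.34 (Krt31), -2.41 to 0.0494 (Krt32), -4.72 to -0.77 (Krt33a), -2.84 to -0.02 (Krt33b), -2.63 to -0.39 (Krt34), -3.57 to -0.21 (Krt35), -2.42 to -0.04 (Krt82). For the day in knockout it gave 0.03 to 0.21 (Krt32), -0.28 to 0.02 (Krt33a), and for genotype at day 6 -0.86 to 0.18 (Krt31), -0.0904 to 0.19 (Krt32), -1.68 to 0.15 (Krt33a), -0.35 to 0.30 (Krt33b), -0.79 to 0.0142 (Krt34), -0.56 to 0.14 (Krt35), -0.24 to 0.15 (Krt82). In these ranges, the fit without the wild-type day 0 array compared the days only in knockout and the genotypes only at day 6. The cause of the changes in direction was otherwise not tested.

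Over all genes, limma called 2286 for the day over both genotypes (5718 with array weights, 4027 without the arrays with Xist signal, 727 to 3251 leaving out arrays) and 0 for genotype over both days (0 to 836; 836 without wild-type replicate 2 at day 6). It called 3251 for the day in knockout (1381 to 4027), 1418 for the day in wild type (1040 to 2209) and 0 for genotype at day 6 (1 over all probe sets, 0 to 43). It called 2869 for genotype at day 0 (4609 with array weights, 682 with the Xist term, 1239 to 4328) and 619 for the difference in day change (143 to 1038). Deviations of samples with the same replicate number correlated at 0.086, 0.037 and 0.227, not all over 0.1, so the samples were taken to share only a number; with a replicate block the counts were 1745, 0, 3523, 1234, 0, 2400 and 613 in the same order, and the block changed no call of the 8 genes.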
